A study of Homo sapiens with 2 samples.

Results

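The olfactory receptor (OR) genes were taken as every gene on the promoter arrays whose symbol had the form of an OR family, subfamily and member name. There were 317 such genes among 17280 genes annotated on the arrays, 103 on the array called chIP1 and 214 on the array called chIP2. The data came from a ChIP-on-chip experiment, in which immunoprecipitated chromatin is read on promoter microarrays, in Meg-01, a human megakaryoblastic leukemia cell line, which was not treated. DNA recovered with the C-20 antibody against the C-terminus of GATA1 (the IP) was labeled with Cy5 and hybridized against Cy3-labeled DNA from a normal goat IgG pull-down of the same chromatin. The 2 arrays carry different probes and are not replicates, so each OR gene was measured in 1 hybridization, with no dye swap. Hence no difference below has a replicate error or a test, and the values describe these arrays.

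Olfactory receptors are G protein coupled receptors that bind odorants on the cilia of sensory neurons in the nose, where each neuron uses a single receptor gene of the family. The genes lie in tandem clusters on many chromosomes and are silent in most other tissues, which is why they serve as a contrast to genes of the blood lineages. GATA1 is a zinc finger factor that binds GATA sequences and drives red cell and megakaryocyte genes. OR transcripts were not measured by these arrays, so the silence of the family in Meg-01 was not checked here.

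The promoters below belong to OR genes on which the results turn. OR9A4 held the highest window of the family, OR5BF1 and OR2G3 held high windows beside their starts, OR4C11 held the lowest window as measured, and OR51V1 is the OR gene nearest to the beta-globin genes on one side. Each is the stretch of 250 bases before the RefSeq start in GRCh38.p14, read 5′ to 3′ on the strand of the gene. The stretches are chr7:141916149-141916398 (plus strand) for OR9A4, chr1:248348525-248348774 (plus) for OR5BF1, now named OR14C36, chr1:247605336-247605585 (plus) for OR2G3, chr11:55607646-55607895 (minus) for OR4C11 and chr11:5200683-5200932 (minus) for OR51V1. Capitals mark the letters AGATAA (or AGATAG) and TGATAA (or TGATAG) on either strand, with overlapping matches joined.
OR9A4: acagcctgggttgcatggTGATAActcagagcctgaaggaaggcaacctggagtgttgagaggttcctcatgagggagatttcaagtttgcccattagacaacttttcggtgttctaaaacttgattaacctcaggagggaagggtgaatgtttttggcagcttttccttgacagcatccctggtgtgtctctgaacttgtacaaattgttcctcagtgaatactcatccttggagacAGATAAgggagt
OR5BF1: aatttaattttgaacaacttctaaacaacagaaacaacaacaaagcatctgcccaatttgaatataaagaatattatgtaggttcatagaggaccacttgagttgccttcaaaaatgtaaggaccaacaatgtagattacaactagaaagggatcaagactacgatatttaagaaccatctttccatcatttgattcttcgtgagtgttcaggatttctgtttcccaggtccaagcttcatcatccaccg
OR2G3: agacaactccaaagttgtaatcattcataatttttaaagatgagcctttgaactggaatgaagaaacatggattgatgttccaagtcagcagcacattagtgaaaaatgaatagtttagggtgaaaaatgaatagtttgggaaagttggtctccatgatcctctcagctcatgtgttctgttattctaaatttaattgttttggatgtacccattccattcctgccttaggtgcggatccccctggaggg
OR4C11: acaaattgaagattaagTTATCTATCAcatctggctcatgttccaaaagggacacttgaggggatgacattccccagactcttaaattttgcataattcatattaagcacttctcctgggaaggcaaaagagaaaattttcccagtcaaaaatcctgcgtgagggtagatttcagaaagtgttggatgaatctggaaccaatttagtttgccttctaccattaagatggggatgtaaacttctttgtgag
OR51V1: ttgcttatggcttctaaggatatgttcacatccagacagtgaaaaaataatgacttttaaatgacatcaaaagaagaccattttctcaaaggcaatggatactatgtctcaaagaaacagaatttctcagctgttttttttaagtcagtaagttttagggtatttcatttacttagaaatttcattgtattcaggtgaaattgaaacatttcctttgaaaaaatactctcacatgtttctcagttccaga
OR9A4 and OR4C11 each held 2 matches, and OR5BF1, OR2G3 and OR51V1 held none. By the distances of the array, the highest window of OR9A4 (center 2202 bp upstream) lay outside these 250 bases. So did the lowest window of OR4C11 (center 470 bp inside the gene) and the center of the highest window of OR2G3 (308 bp upstream). The window of OR9A4 centered 188 bp upstream was its lowest (-1.52). The same letters occurred in 22.9% of all 27305 RefSeq promoters of this length. A match in these bases is a description, not a binding site. The RefSeq start need not be the start used by the array, whose genome build is not given in the sources used here. RefSeq promoters were found for 243 of the 305 OR genes with a window (79.7%), under the 80% set for a check over the family, so such a check of the letters or of base composition is void and no share is given for OR genes.

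Each value below is the mean log2(IP/IgG) of a window of 3 adjacent probes after each array was centered on its median of 0, so that 1 stands for 2-fold toward the IP and -1 for 2-fold toward the IgG. A window belonged to a gene if it held a probe annotated to it. Of 7619 OR probes, 7575 passed the filter on dim and non-uniform spots. Of the 317 OR genes, 305 had at least 1 window, and the other 12, with 1 to 4 kept probes each, had none. Those 12 were OR10G9, OR2T3, OR2T34, OR4A47, OR4A5, OR4C13, OR4C46, OR4M1, OR4M2, OR4N2, OR4Q3 and OR6B2. Probes of near-identical OR copies can catch each other's DNA, and probe sequences were not used here, so values of close copies are uncertain.

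OR genes leaned to the IgG side. A window of at least 2-fold toward the IgG was found for 267 of 305 OR genes (87.5%), against 52.9% of all 17054 genes with a window and 52.3% of the 16749 other genes. A window of at least 2-fold toward the IP was found for 139 OR genes (45.6%), against 57.1% of all genes and 57.3% of the other genes. OR genes with windows on the IgG side alone numbered 142, those with both kinds 125, those with the IP side alone 14, and those with neither 24. In the other genes the order was the opposite, with 3545 on the IgG side alone and 4382 on the IP side alone.

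The whole level of the OR genes was shifted, not only their extremes. The median window of an OR gene had a median of -0.46 over the family, against 0.06 in the other genes, and it lay below 0 in 272 of 305 OR genes (89.2%), against 43.6% of the other genes. It ranged from -1.96 in OR5L2 to 0.99 in OR2J2, and 41 OR genes (13.4%) had a median window of -1 or lower, against 1.10% of the other genes. The lowest window of an OR gene had a median of -1.81, against -1.03 in the other genes. For the highest window the medians were closer, 0.95 in OR genes and 1.09 in the other genes.

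Both arrays showed this lean. On chIP1, 87 of 100 OR genes had an IgG-side window, against 55.1% of the other genes, and 43 had an IP-side window, against 59.6%. On chIP2 the numbers were 180 of 205 (87.8%) against 49.6%, and 96 (46.8%) against 55.1%. The number of windows per gene was alike, with a median of 22 in OR genes and 23 in the others. With the other genes weighted to the OR genes' spread over 4 classes of window number, 49.8% of them had an IgG-side window and 54.9% an IP-side window.

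**Figure D1:**
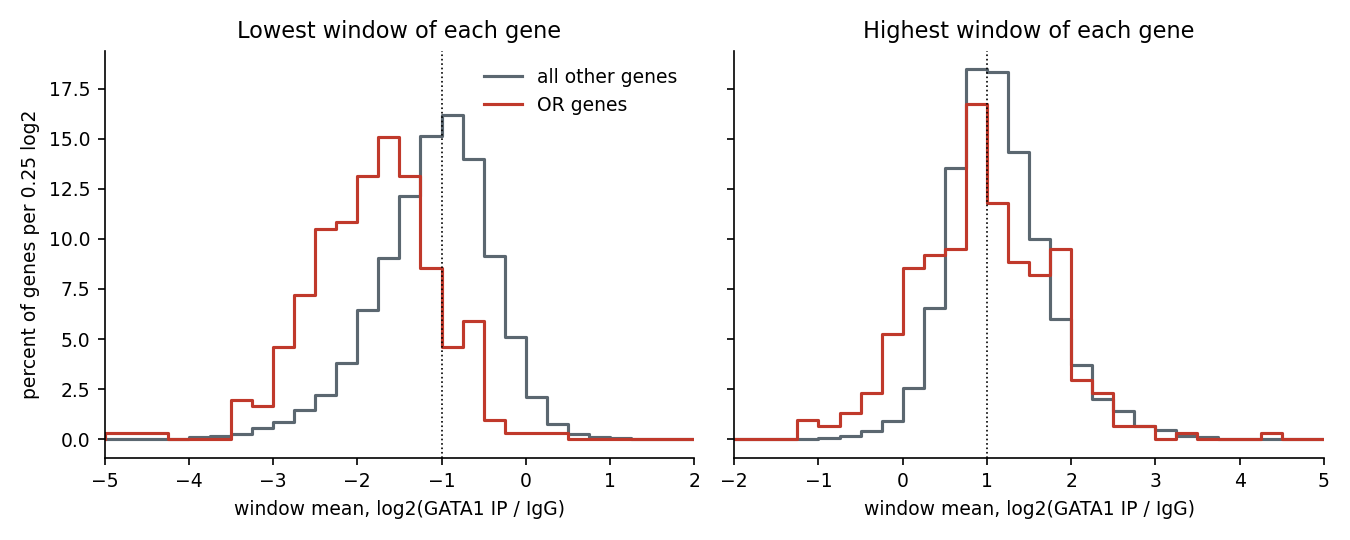
Distribution of the lowest (left) and the highest (right) window of each gene, as the percent of the 305 OR genes (red) and of the 16749 other genes (gray) per step of 0.25; the dotted lines mark 2-fold. The lowest windows of OR genes sit further left (median -1.81 against -1.03), while the highest windows overlap (median 0.95 against 1.09).

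Counted by window, the family was further to the IgG side. Of 6535 windows with an OR probe, 1889 (28.9%) were at least 2-fold toward the IgG, against 9.65% of all 415417 windows, and 406 (6.21%) were at least 2-fold toward the IP, against 7.62% of all windows. The IP side thus made up 17.7% of OR windows past 2-fold, against 45.0% in the other windows. With normexp background correction this share was 7.33% in OR windows and 57.8% in the others, and the OR genes with an IP-side window fell from 139 to 23 (7.54%, against 33.6% of the other genes) and those with an IgG-side window from 267 to 164 (53.8%, against 23.4%). By window, 42 IP-side and 531 IgG-side OR windows were left. Most OR windows past 2-fold were thus lost on both sides with normexp, and the lean of those that were left was still to the IgG side.

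By place, OR windows were lower than those of the other genes from 5500 bp upstream to 2500 bp downstream of the start. In this range the OR median was below 0, and below that of the other genes, in 16 of 16 steps of 500 bp. Outside it the steps held 61 OR windows in all, 2 to 17 each, and the OR median lay above that of the other genes in 2 of 6 steps, with 0.26 over 9 windows and 0.11 over 2. Windows centered within 500 bp of the start had a median of -0.34 in OR genes (1140 windows) and 0.27 in the other genes, a difference of -0.61. On chIP1 the medians were -0.16 and 0.30, and on chIP2 -0.39 and 0.25. Between 4000 and 2000 bp upstream the medians were -0.63 in OR genes and -0.15 in the other genes. Both groups were therefore higher at the start than upstream, by 0.29 in OR genes and 0.43 in the other genes, and the OR genes did not rise above the array median. Both were brighter at the start as well. The median log2 intensity of windows was 8.22 upstream and 8.99 at the start in OR genes, and 9.42 and 10.27 in the other genes. The part of brightness in the rise was not tested.

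At the start itself, the share of windows at least 2-fold toward the IP was 6.75% in OR genes and 10.6% in the other genes, and the share toward the IgG was 24.4% and 3.78%. Among windows whose center probe the array placed in a promoter, 30.1% of OR windows were on the IgG side, against 10.9% of the others. For center probes inside genes the shares were 21.6% and 7.94%, and for those downstream of genes 32.1% and 11.9%. OR coding regions are short and mostly lie within an exon, so many OR windows inside the gene cover coding sequence.

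**Figure D2:**
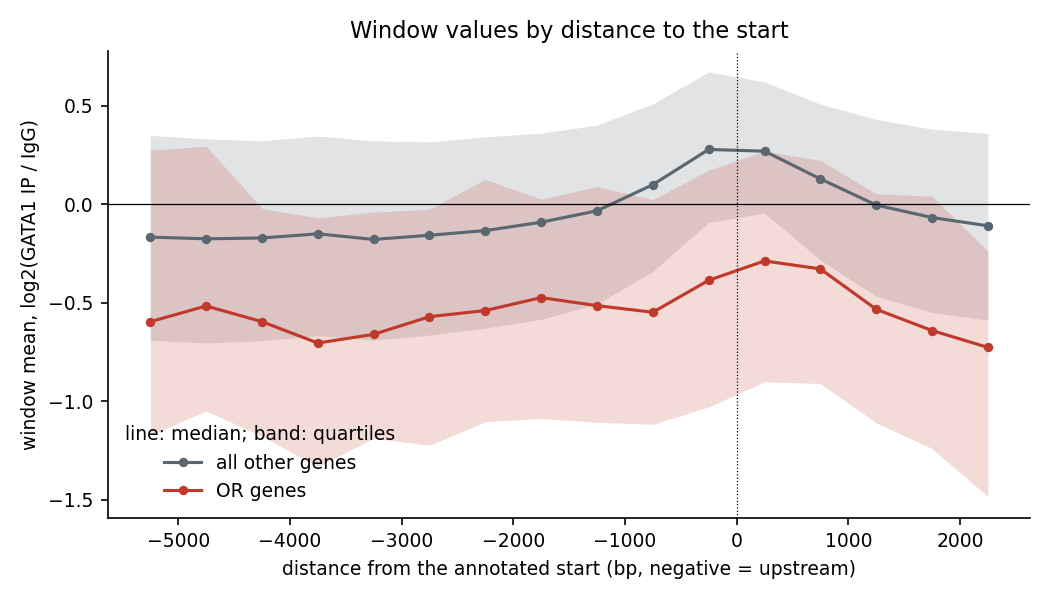
Window mean (log2 IP over IgG) by distance of the center probe from the annotated start in steps of 500 bp, for OR genes (red) and all other genes (gray); lines are medians and bands run from the lower to the upper quartile. From 5500 bp upstream to 2500 bp downstream, the range drawn, the OR line stays below 0, with its highest step at -0.29 just after the start, where the other genes reach 0.27.

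The place of the extreme windows was also compared. Of the 139 OR genes with an IP-side window, 27 (19.4%) had their highest window within 500 bp of the start, against 27.4% of the other genes with such a window, and 47 (33.8%) had it more than 2000 bp upstream, against 22.0%. The lowest window lay within 500 bp of the start in 32 of the 267 OR genes with an IgG-side window (12.0%), against 6.16% of the other genes. The measured windows were also spread unlike. OR genes had 1490 windows centered 4000 to 2000 bp upstream and 1140 within 500 bp of the start, and the other genes 59236 and 78650. The part of this spread in the shares above was not tested.

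OR probes were dim. On chIP1 the processed intensity of OR probes had a median of 332 for the IP and 447 for the IgG, against 878 and 926 for the other probes. On chIP2 it was 284 and 406, against 860 and 901. OR probes were thus lower in both channels and more so in the IP, by -1.40 (IP) and -1.05 (IgG) on the log2 scale on chIP1 and by -1.60 and -1.15 on chIP2. Before correction, their median mean signal was 418 (IP) and 355 (IgG) on chIP1 and 409 and 366 on chIP2, against 342 and 303 for the negative control spots of chIP1 and 340 and 303 for those of chIP2. Nevertheless 98.2% to 99.3% of OR probes were marked well above background in a given channel.

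At like brightness, OR windows were still further to the IgG side. Of the OR windows, 65.7% fell in the dimmest of 4 equal intensity classes of their array, where 31.7% of OR windows and 19.4% of the other windows were on the IgG side. In the class above it the shares were 26.2% and 10.7%, in the next 19.4% and 5.91%, and in the brightest, with 165 OR windows, 12.1% and 1.81%. In each of the 4 classes the IgG-side share was thus higher in OR windows, and the IP-side share was lower, with 0.606% against 6.20% in the brightest. When the other windows were weighted to the spread of OR windows over array and 20 intensity steps, a weighting chosen after the data had been seen, 17.0% of them were past 2-fold toward the IgG and 10.5% toward the IP, against 28.9% and 6.21% of OR windows. What else differs between OR and other DNA at equal brightness, such as base composition or chromatin, was not tested.

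**Figure D3:**
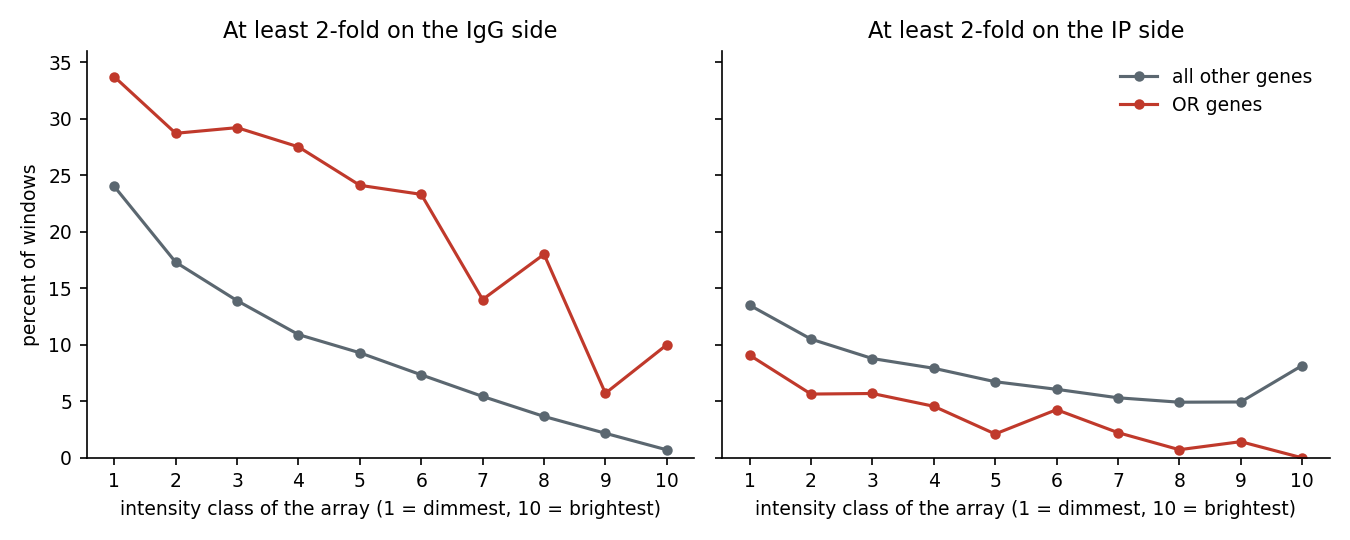
Percent of windows at least 2-fold toward the IgG (left) and toward the IP (right) by 10 equal classes of mean log2 intensity within each array, for OR windows (red) and other windows (gray). The OR line lies above the gray line in all 10 classes on the left and below it in all 10 on the right; the brightest class holds only 30 OR windows.

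Most OR genes lay in clusters, and all the larger clusters had medians below 0. Joining OR genes whose nearest probes lay within 500000 bp gave 20 clusters with at least 5 measured genes, which held 272 OR genes. The cluster median of the genes' median windows was below 0 in 20 of 20 clusters, from -0.97 in the chromosome 12 cluster of 8 genes of families 6, 9 and 10 to -0.22 in the chromosome 19 cluster of 5 family 10 genes. More genes had an IgG-side than an IP-side window in 18 clusters, and the numbers were equal in the other 2. The 33 OR genes outside these clusters had an IgG-side window in 29 (87.9%) and an IP-side window in 14 (42.4%), against 87.5% and 46.0% of the clustered OR genes. Their level was less low, with a median of -0.32 against -0.48 and a median window below 0 in 69.7% against 91.5%.

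The low end was made up of the chromosome 12 cluster, the chromosome 3 cluster of 6 family 5 genes (-0.85), and the chromosome 11 cluster of 43 genes of families 4, 5, 8, 9 and 10 (-0.73). In that last cluster 42 of 43 genes had a median window below 0, 40 had an IgG-side window and 15 had an IP-side window. The 3 clusters of chromosome 19 were spread over the order. In the cluster of 5 OR10 genes (OR10H5 the highest), at -0.22 the least low of the 20, none had a window past 2-fold on either side. These genes had a median of only 4 windows each, against 22 in the family, and calls were rarer in genes with few windows. The chromosome 19 cluster of 7 genes of families 1, 2 and 7 had a median of -0.33, with 4 genes on each side. That of 6 genes of families 1 and 7 was the fifth lowest at -0.60, with 4 genes on the IgG side and 0 on the IP side.

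Brightness differed between the clusters. The median gene of the chromosome 11 cluster of 43 genes lay at the 1.86 percentile of its array in mean intensity and that of the chromosome 12 cluster at the 1.98 percentile, and both were at the low end. The chromosome 19 clusters were the brightest, and their levels differed. The one of 5 genes (-0.22) lay at the 41.0 percentile, the one of 7 genes (-0.33) at 38.5 and the one of 6 genes (-0.60) at 40.6, so the last was bright and also among the lowest. Over the 20 clusters Spearman's rho between this percentile and the cluster median was 0.69, and over the 305 OR genes it was 0.25, against 0.38 over the 16749 other genes. These are descriptions of points that share arrays and neighbors.

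**Figure D4:**
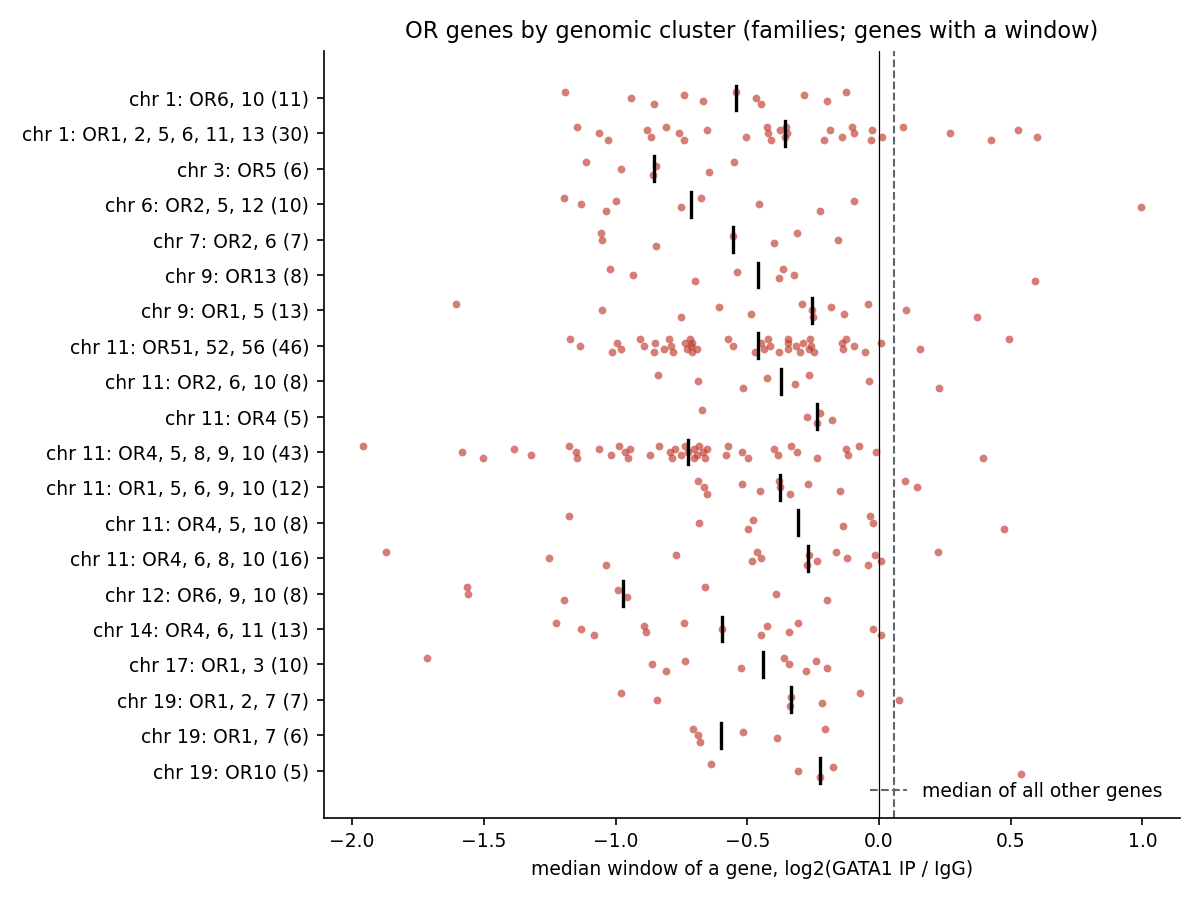
Median window of each OR gene (points, log2 IP over IgG) in the 20 genomic clusters with at least 5 measured OR genes, labeled by chromosome, families and number of genes; black bars are cluster medians. All 20 bars lie left of 0 and of the dashed line at 0.06, the median of all other genes.

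Genes of other kinds inside the same clusters were nearer to the array median. The 42 non-OR genes annotated inside the spans of the 20 clusters, which included TRIM family genes, globin genes and ribonuclease genes, had a median of -0.22, and 22 (52.4%) had an IgG-side window. Their median intensity percentile was 36.7, against 6.93 for the OR genes of the clusters. The 2 sets thus differed in level while sharing their neighborhoods, and they differed in brightness as well.

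Class I receptors, the families OR51, OR52, OR55 and OR56 that resemble the receptors of fish, all lie in 1 cluster on chromosome 11. Of 46 class I genes with a window, 45 (97.8%) had an IgG-side window and 27 (58.7%) an IP-side window. Of 259 class II genes, 222 (85.7%) and 112 (43.2%) did, and on chromosome 11 alone 88 and 42 of 97 class II genes did. Over all genes the shares were 52.9% on the IgG side and 57.1% on the IP side, so the IP-side share of class I was near that of all genes. The medians of the median windows were -0.46 in both classes. Class I genes had slightly more windows (a median of 25 against 21). In the family as a whole the IP-side share rose with the number of windows, from 12.1% of OR genes with under 10 windows to 65.5% of those with 30 or more. Among the families with at least 10 measured genes, family 5 had the lowest median (-0.73, 44 genes) and family 10 the highest (-0.37, 31 genes).

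The highest windows of the family were seen near OR9A4, a class II gene on chromosome 7. The 3 probes of its highest window, centered 2202 bp upstream of the start, gave 3.61, 4.56 and 4.97, with processed IP intensities of 561, 1395 and 824 against IgG intensities of 46.0, 59.4 and 26.4. The mean of 4.38 was the highest among all genes of chIP1, but the IgG signal of the last probe was not well above background. With both channels required to be above background the highest window of OR9A4 was 3.05, at the 99.6 percentile of genes, and with normexp it was 1.51, at the 94.7 percentile. OR9A4 also had an IgG-side window, with a mean of -1.52 at 188 bp upstream of the start, so that windows of both directions lay within its measured stretch.

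The next highest were OR51F2 (3.32), OR13H1 (2.82) and OR8D1 (2.79). In OR51F2, a class I gene, the probes gave 3.18, 3.90 and 2.88 at 3115 bp upstream of the start, with IgG intensities of 53.4, 18.7 and 18.2. In OR13H1 on chromosome X the probes gave 2.73, 1.70 and 4.03 inside the gene. In each of these windows all 3 probes were on the IP side. The remaining genes of the highest 10 were OR5BF1 (2.60), OR2B11 (2.60), OR8B4 (2.44), OR2G3 (2.41), OR4F6 (2.40) and OR2D3 (2.36).

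OR5BF1 and OR2G3 had their highest windows beside the start. The probes of OR5BF1, centered 59 bp upstream, gave 2.70, 3.13 and 1.98, with IP intensities of 148, 495 and 435 against IgG intensities of 22.8, 56.6 and 110.5. Those of OR2G3, centered 308 bp upstream, gave 1.33, 3.09 and 2.82. Neither promoter shown above held the GATA letters. By the distances of the array, the center of the OR2G3 window lay upstream of the bases shown, so they do not describe the whole window. The window of OR2B11 also held a probe of CIAS1, an inflammasome gene now called NLRP3.

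All 10 windows were dim, and 5 of them held a probe that was not well above background in the IgG channel. They lay between the 1.47 and 14.2 percentiles of window intensity on their arrays. Of the 10 genes, 9 also had an IgG-side window, which is near the share in OR genes as a whole (87.5%). With normexp, 4 of the 10 genes kept a window of at least 2-fold, namely OR9A4 (1.51), OR2B11 (1.44), OR5BF1 (1.27) and OR2D3 (1.05), and the lowest was OR13H1 (0.51). With both channels required to be above background, 9 of the 10 kept it, and OR51F2 fell to 0.90.

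The lowest windows of the family were in OR4C11, OR5P3, OR1L8, OR13G1 and OR4S2. In OR4C11, of the chromosome 11 cluster of 43 genes, the probes of the window centered 470 bp inside the gene gave -4.24, -4.76 and -5.33, from IP intensities of 8.11, 38.5 and 13.8 against IgG intensities of 152, 1041 and 554. The IP signal of the first probe was not well above background, so the mean of -4.78 has no firm size. With both channels required to be above background the lowest window of OR4C11 was -4.16, and OR5P3 (-4.58) was then lower. OR4C11 also had a window of 1.83 at 950 bp upstream, the highest of its cluster.

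OR5P3 reached -4.58 at 1517 bp downstream of its start, OR1L8 -4.30 at 979 bp upstream, OR13G1 -3.50 at 499 bp inside the gene and OR4S2 -3.43 at 2898 bp upstream. OR13G1 had the brightest of these windows, at the 43.9 percentile of intensity, with IgG intensities of 3289, 4655 and 1256 against IP intensities of 319, 328 and 127. The other 4 lay below the 25 percentile, and 3 of the 5 windows held a probe whose IP signal was not well above background. All 5 kept a window of at least 2-fold toward the IgG with normexp, from -2.46 in OR13G1 to -1.09 in OR4S2, and also when both channels had to be above background.

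In each cluster the OR gene with the highest window was also noted. These values ran from 3.32 in OR51F2 to 0.65 in OR10H5, and 18 of 20 were past 2-fold. Each is the highest over 5 to 46 genes, and 45.6% of OR genes and 57.1% of all genes had an IP-side window. The count of 18 is thus no trait of the clusters. With normexp 6 of the 20 genes kept a window past 2-fold, namely OR5BF1, OR1N1, OR2D3, OR9Q2, OR3A4 and OR7G2, and with both channels above background 15 did. Outside the highest 10 they included OR4K13 on chromosome 14 (2.34), OR1N1 on chromosome 9 (2.30), OR9Q2 on chromosome 11 (2.22), OR6C74 on chromosome 12 (2.15), OR6K2 on chromosome 1 (2.13), OR3A4 on chromosome 17 (2.05) and OR7G2 on chromosome 19 (1.97). OR3A4 and OR7G2 were the brightest of these, at the 29.9 and 42.3 percentiles of window intensity. In OR7G2 the probes gave 1.55, 2.33 and 2.03 at 389 bp inside the gene, with IP intensities of 1934, 1513 and 1083 against 660, 300 and 265.

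The remaining cluster leaders were OR13F1 (1.99), OR4C3 (1.96), OR2A14 (1.89), OR4D10 (1.81), OR5H6 (1.63), OR2J2 (1.59) and OR7A5 (0.80). In OR2A14 the window rested on 1 probe of 4.05 between neighbors of 0.75 and 0.88. RefSeq now gives OR3A4 as the pseudogene OR3A4P. OR2J2 is also the OR gene with the highest median window (0.99, over 11 windows), which fell to 0.02 with normexp.

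The beta-globin genes lie inside the class I cluster of chromosome 11, which places OR genes beside a known region of GATA1 action. There were 13 OR genes with a probe within 200000 bp of a globin probe. Of these, 13 (100%) had an IgG-side window and 8 (61.5%) an IP-side window, against 52.9% and 57.1% of all genes. The median of their median windows was -0.27, against -0.46 for class I genes as a whole. The 5 globin genes HBB, HBD, HBG1, HBG2 and HBE1, which encode the beta-like chains of hemoglobin, had median windows from -0.63 (HBE1) to -0.30 (HBB and HBG1). The ranges overlapped. OR51I2 (-0.85) and OR51I1 (-0.79) lay below all 5 globin genes, and the other 11 OR genes above HBE1. IgG-side windows were found in 13 of 13 OR genes and 2 of 5 globin genes, and the median of the lowest windows was -1.36 in these OR genes and -0.98 in the globin genes. The 2 globin genes were HBB (47 windows) and HBE1 (39), while HBD (17), HBG1 (8) and HBG2 (8) had fewer windows. The 13 OR genes had a median of 24 windows. Among the other genes of the arrays, 18.2% with under 10 windows and 71.3% with 30 or more had an IgG-side window. The globin genes were brighter, at a median intensity percentile of 23.9 against 8.48.

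On the side of HBB, the nearest OR gene, OR51V1, had its lowest window (-1.75) centered 27 bp upstream of its start, with probes of -0.37, -3.18 and -1.68, and a highest window of 0.66. Its promoter is shown above. Of the OR genes further out on that side, OR52A1 had a highest window of 1.37, OR52A5 of 0.83, OR52E2 of 0.69 and OR52A4, which RefSeq now gives as a pseudogene, of 0.38. Only OR52A1 of these 5 was past 2-fold on the IP side, and it was so with normexp as well (1.01).

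On the side of HBE1, 7 of 8 OR genes were past 2-fold on the IP side, against 57.1% of all genes. These 8 genes had 19 to 50 windows each, and the 5 on the side of HBB 8 to 32, with 32 in OR52A1. Among the other genes of the arrays, 27.3% with under 10 windows and 74.7% with 30 or more had an IP-side window. The part of window number in the difference between the sides was not tested. Of these 8, only OR51B2 (1.33) and OR51B4 (1.04) were past it with normexp, and 5 were with both channels above background. On the IgG side, normexp left 4 of these 8 genes, and 0 of the 5 on the side of HBB, past 2-fold. OR51B4, the nearest, reached 1.63 at 1187 bp upstream with probes of 2.89, 1.47 and 0.54, and OR51B2 reached 1.56. OR51B5 and OR51B6 shared a divergent promoter window of 1.84, with probes of 1.82, 1.22 and 2.49, which is 1 measurement for both genes. OR51M1 reached 2.14, on probes of -0.35, 2.52 and 4.26, OR51I2 1.92, OR51I1 1.10 and OR51Q1 0.86. OR51I1 and OR51I2 shared the lowest window of the region, -2.81. Among the globin genes, HBB (1.498) and HBD (1.05) had an IP-side window, and HBE1 (0.66), HBG1 (-0.13) and HBG2 (-0.16) did not.

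**Figure D5:**
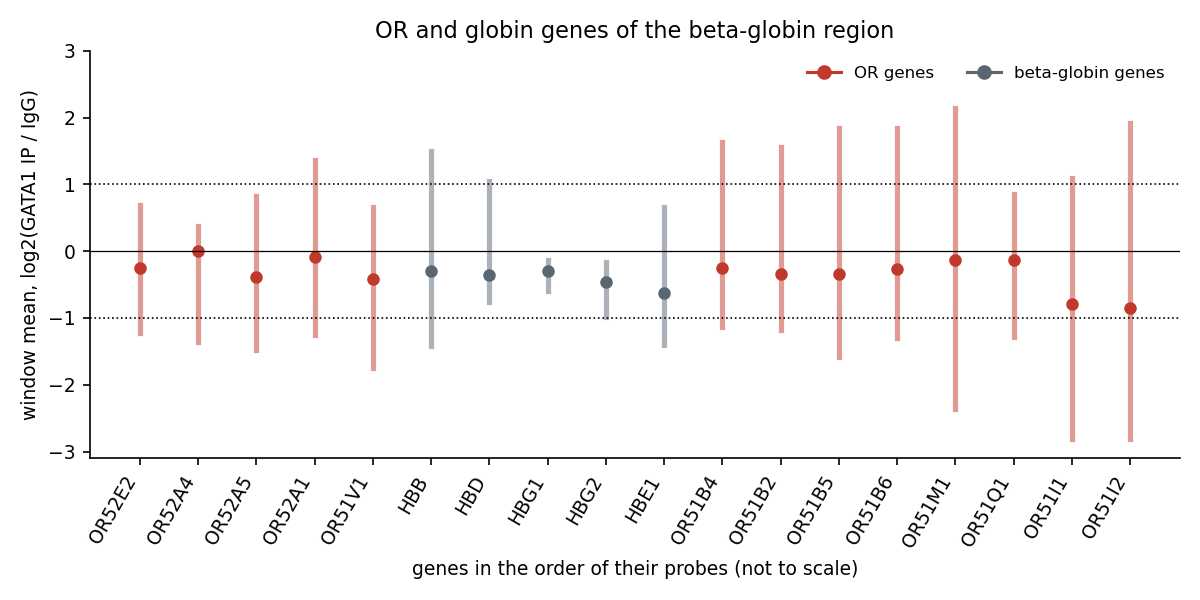
Lowest to highest window (bars) and median window (points), log2 IP over IgG, of 13 OR genes (red) and 5 beta-globin genes (gray) in the order of their probes on chromosome 11; dotted lines mark 2-fold. IP-side windows are seen in OR52A1 on the left and in 7 of the 8 OR genes on the right, of which 2, OR51B2 and OR51B4, kept one with normexp background correction (not drawn). The OR genes on the right had 19 to 50 windows each and those on the left 8 to 32.

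Some receptors are known from cells outside the nose. The genes OR51E1 and OR51E2 are found in prostate, OR1D2 in sperm, OR2AT4 in skin and OR51B5 in leukemia cell lines, and OR2W3 was taken with them. OR51E1 had a highest window of 1.91 and OR51B5, above, of 1.84. OR1D2 reached 1.38 at 972 bp upstream of its start, OR2W3 0.87, OR2AT4 0.53 and OR51E2 0.44. With normexp 0 of the 6 genes had an IP-side window, against 7.54% of OR genes and 33.6% of the other genes. The highest window was then 0.80 in OR51E1, 0.54 in OR51B5 and -0.15 in OR1D2. OR2W3 had the brightest of these windows, at the 86.4 percentile, with probes of 0.68, 1.43 and 0.52. Windows of at least 2-fold toward the IgG were found in 5 of the 6 genes (2 with normexp), and OR1D2 reached -0.74. Such windows were found in 87.5% of OR genes (53.8% with normexp) and 52.3% of the other genes (23.4% with normexp).

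Other genes of the sense of smell had median windows nearer to the array median. Of 19 listed genes, which encode the olfactory G protein (GNAL), adenylyl cyclase (ADCY3), channel subunits, chaperones that carry receptors to the membrane (RTP1, RTP2) and regulators of receptor choice (LHX2, LDB1, KDM1A), 17 were found with a window. They had a median window of 0.12 and a median intensity percentile of 31.9. Past 2-fold were 9 (52.9%) toward the IP and 12 (70.6%) toward the IgG, against 57.1% and 52.9% of all genes. They had a median of 27 windows, against 23 in all genes. RTP2 had the highest window of these (2.26 at 241 bp upstream), followed by ANO2 (1.94) and GNAL (1.93), and OMP (0.45), the olfactory marker protein, the lowest.

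Of the gene sets set beside the OR genes, other chemoreceptors had the nearest values. The 29 genes for taste receptors, vomeronasal receptors and trace amine receptors had a median window of -0.59, an IgG-side window in 26 (89.7%) and an IP-side window in 14 (48.3%), and they were as dim, with a median intensity percentile of 6.99. TAS2R4 (2.36) and TAS2R3 (2.11), both bitter taste receptors, were highest, and TAS2R48 (-0.67, with 1 window) and TAS2R10 (-0.31) were lowest.

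Keratin genes came next. Of 88 keratin and keratin associated genes, 67 (76.1%) had an IgG-side window and 50 (56.8%) an IP-side window, with a median window of -0.27 and a median intensity percentile of 12.5, against 7.50 for OR genes. Of 81 genes for cytosolic ribosomal proteins, 21 (25.9%) and 50 (61.7%) did, with a median of 0.27 at the 91.1 percentile. Of 161 ZNF genes on chromosome 19, which are clustered like OR genes, 50 (31.1%) and 57 (35.4%) did, with a median of 0.03 at the 85.7 percentile. The OR, chemoreceptor and keratin sets were the dimmest and had the highest IgG-side shares. The smell signaling set, above, had an IgG-side window in most genes as well, at a higher brightness and with a median above 0. Over all genes, 52.9% had an IgG-side and 57.1% an IP-side window. The median number of windows was 23 in keratin genes and in all genes, 16 in ribosomal protein genes and 15 in ZNF genes. Among the other genes of the arrays with 10 to 19 windows, 37.4% had an IgG-side and 45.8% an IP-side window. The parts of brightness and window number in the shares of these sets were not tested.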

How the data were processed

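The authors deposited 1 scanner file an array. Its intensity values, per the file headers, came from Agilent Feature Extraction 9.5.3.1, surface-subtracted and dye-normalized. The deposited log10 ratio and p-value of each spot come from the error model of that program. The deposited series table repeats these log10 ratios. The genome build is not given in the sources used here. Here log2 of processed IP over IgG intensity was centered on each array's median. Outlier spots were dropped, as were probes not well above background in at least 1 channel. A window was 3 adjacent probes, each neighbor within 1000 bp of the center. Python 3.11.15, pandas 2.3.3, statsmodels 0.14.6 and, for normexp (offset 50), limma 3.58.1 were used. The steps were tested on simulated data.

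The OR genes, gene lists and rules were chosen with earlier results of these data known. Named are the 10 OR genes with the highest and the 5 with the lowest window, the highest of each cluster, those within 200000 bp of the globin probes, 6 receptors known elsewhere, and the 3 highest and 2 lowest of the smell and chemoreceptor list. Others were named after their values were seen. By transcript accession, symbol or synonym, 317 of 317 OR genes matched RefSeq, 8 under another name.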

Additional observations from a re-analysis of the deposited data

How the results depend on the processing

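No paired analysis was possible because no probe was on both arrays and each was hybridized once. The main values were 139 OR genes with an IP-side and 267 with an IgG-side window, an IP share of 17.7% of OR windows past 2-fold, a median highest window of 0.95 and a median near the start 0.61 lower than in other genes (-0.61). No alternative below brought the IP share of OR windows above that of the other windows or changed the sign of the difference near the start. With the series value table, without the dim filter, without probes shared with another gene and without symbols ending in P, of which there were 0, these values moved little.

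With normexp the counts were 23 and 164, the IP share 7.33% and the median highest window 0.26. With loess the share was 23.1%, the median 1.04 and the difference near the start -0.51. With both channels above background the share was 15.9%, and with the distance trend subtracted 19.9%. Single probes gave 254 of 317 OR genes on the IP side (80.1%, against 86.2% of the other genes) and a share of 23.6%. The median was then 1.82, above that of the other genes (1.73), where the main order was the opposite (0.95 against 1.09). Windows of 5 probes gave 75 of 300 OR genes on the IP side (25%, against 34.7% of the other genes). The share was then 13.0% and the median 0.53. At 1.5-fold there were 209 genes on the IP side (68.5%, against 85.3% of the other genes) and a share of 21.7%. At 3-fold these were 64 and 14.6%, and the scanner error model gave a share of 21.0%. At 3-fold the IP-side percent of OR genes (21.0%) was no longer below that of the other genes (20.6%). Over windows above the median intensity, an alternative chosen after seeing the data, 14 of 179 OR genes (7.82%) were past 2-fold on the IP side, against 35.1% of the other genes. On the IgG side 71 (39.7%) were, against 25.8%. The IP share was 12.9%, against 60.4%, and the median highest window was reversed to -0.0757, against 0.82. The cause of these shifts was not tested.

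Among the named OR genes past 2-fold on the IP side, the highest window turned negative with normexp in OR4C11 (-0.35), OR5H6 (-0.17), OR6C74 (-0.23), OR4K13 (-0.0606) and OR1D2 (-0.15), and with both channels above background in OR5H6 (-0.52). Of the named OR genes below 2-fold, OR52A4 (-0.45) and OR51E2 (-0.35) turned negative with normexp. With windows of 5 probes OR51E2 (-0.0581) and OR2AT4 (-0.16) did. Clusters joined at 1000000 bp numbered 17, in place of 20, again all with medians below 0. The comparison of GATA letters over OR promoters was not run, since too few promoters matched. Most OR probes were near the negative controls in signal, which limits the precision of single windows.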
